A study of Homo sapiens with 12 samples.

Results

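The ERBB receptor genes were the 4 genes ERBB2, ERBB3, ERBB4 and EGFR, taken by gene symbol from the 22170 genes of the normalized count table of SKBR3 cells. All 4 were in the table and all 4 passed the filter on low values, together with 14179 genes in all. SKBR3 is an established breast cancer cell line that the labels describe as HER2+ and of wild-type genotype. It carries an amplified ERBB2 gene. There were 4 groups of 3 libraries each. GSK126 plus lapatinib cells received 5 µM GSK126, an inhibitor of the histone methyltransferase EZH2, from day -6, and 100 nM lapatinib, an inhibitor of the EGFR and HER2 kinases, for the last 24 h. GSK126 cells received the same 5 µM GSK126 for the same 7 days without lapatinib. Lapatinib cells were kept in DMSO and then received 100 nM lapatinib for 24 h. DMSO cells received the vehicle throughout. Every group was split at day -3 and seeded at day -1 at 350000 cells per 6 cm plate. Whether replicates were cultured separately is not stated in the labels, and every p-value here reflects the spread among the sequenced libraries alone, which may be technical.

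ERBB receptors are transmembrane tyrosine kinases that pair on the cell surface when a ligand of the EGF family binds. EGFR, ERBB3 and ERBB4 bind ligands. HER2, the product of ERBB2, has no known ligand and is the preferred partner of the others, while ERBB3 has very weak kinase activity and carries many docking sites for PI3 kinase. In HER2-amplified breast cancer cells the HER2 and ERBB3 pair is a main source of PI3 kinase and AKT signalling, and ERBB3 transcription is known to rise when that signalling is blocked.

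The libraries held 17693103 to 30349466 reads in genes. GSK126 plus lapatinib library 1 was the shallowest, yet it detected 21669 genes, while the remaining 11 detected 15059 to 17338. The libraries were grouped by hierarchical clustering of the relative abundance of the better-covered of their 86 spike-in transcripts. The number of sets, 3, was fixed in advance and is not a result. The first set held 8 libraries, all DMSO and lapatinib libraries and GSK126 plus lapatinib libraries 2 and 3. The second held GSK126 libraries 2 and 3 and GSK126 plus lapatinib library 1, and the third only GSK126 library 1. In this grouping no GSK126 library shared a spike-in composition with a DMSO library, so for that pair the composition and the drug cannot be told apart. Spike-ins took 1.72%, 1.68% and 1.35% of gene and spike-in reads in GSK126 plus lapatinib libraries and 1.33%, 0.384% and 0.650% in GSK126 libraries. They took 0.860%, 1.42% and 1.03% in lapatinib libraries and 0.745%, 0.588% and 0.663% in DMSO libraries. The median within-group SD of log2 values over tested genes was 0.432 in GSK126 cells, against 0.203 in GSK126 plus lapatinib cells, 0.116 in lapatinib cells and 0.243 in DMSO cells. Luminal keratin markers were abundant, with KRT8 between 147156 and 212769 normalized counts, and GATA3 was between 1835 and 4987. CDH1, the E-cadherin gene, was between 0 and 12.4.

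ERBB2 dominated the receptor transcripts in every library. Normalized counts were divided by the length of each gene's principal transcript in GENCODE 29, which is 4545 bases for ERBB2, 5919 for ERBB3, 12136 for ERBB4 and 9821 for EGFR. ERBB2 then made up 95.3% ± 0.60 of the summed level of the 4 genes in GSK126 plus lapatinib cells, 95.3% ± 0.70 in GSK126 cells, 97.4% ± 0.059 in lapatinib cells and 97.1% ± 0.43 in DMSO cells (SD, n = 3 each). ERBB3 came next, with 4.28%, 4.09%, 2.50% and 2.73% in the same 4 groups. EGFR made up 0.398% in GSK126 plus lapatinib cells, 0.562% in GSK126 cells, 0.115% in lapatinib cells and 0.186% in DMSO cells. ERBB4 was the lowest of the 4 genes in every group, at 0.0205%, 0.0190%, 0.00573% and 0.00451% in that order of groups. The order by length-scaled level was therefore ERBB2, ERBB3, EGFR and ERBB4 in each of the 4 groups.

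**Figure D1:**
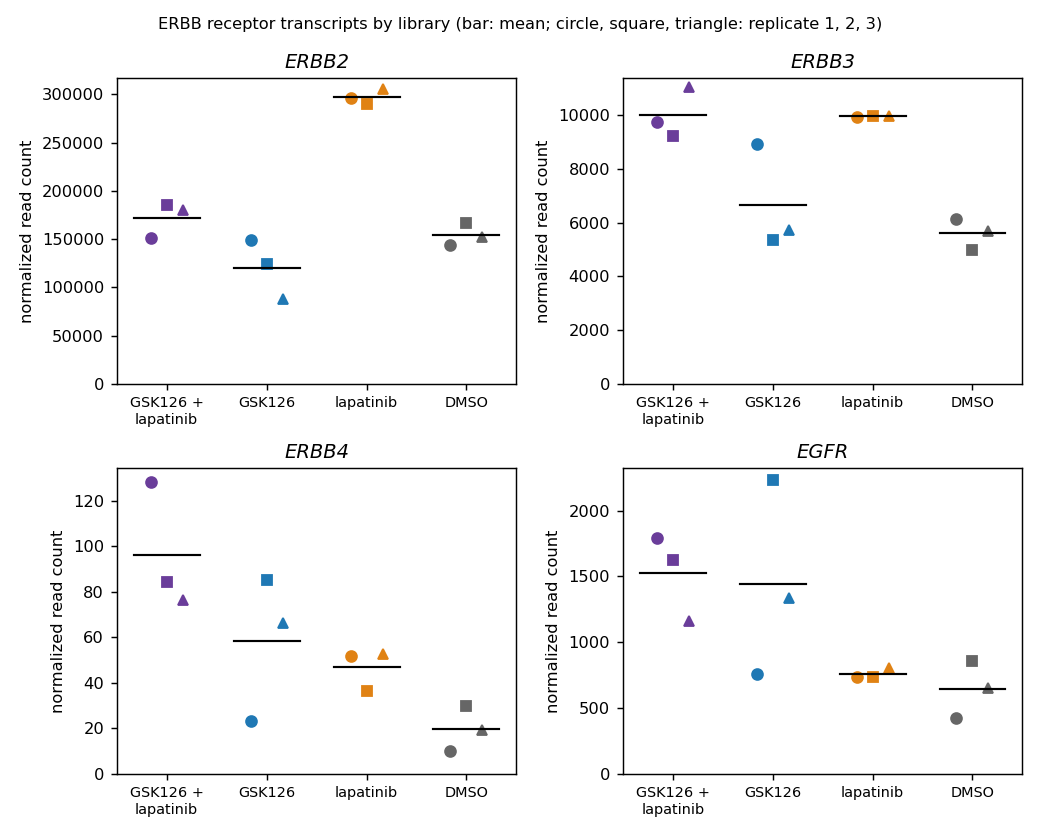
Normalized read counts of ERBB2, ERBB3, ERBB4 and EGFR in each library (vertical axes, each from 0) for GSK126 plus lapatinib, GSK126, lapatinib and DMSO cells (left to right). Symbols are replicates 1 to 3 and bars are group means. The 3 lapatinib libraries stand alone at the top for ERBB2, at 290536 or more, and ERBB4 is at 128 or less in every library.

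ERBB2, which encodes HER2, had the following values. GSK126 plus lapatinib cells had 151017, 185485 and 180505 normalized counts and GSK126 cells had 149368, 123876 and 88082. Lapatinib cells had 296383, 290536 and 305779, against 143494, 166912 and 152454 in DMSO cells. The lapatinib libraries were above all 9 others, which ranged from 88082 to 185485. ERBB2 reads were 1.13% to 1.24% of all gene reads in lapatinib libraries, against 0.460% to 0.631% in DMSO libraries. The order of the group means was lapatinib (297566), GSK126 plus lapatinib (172335), DMSO (154286) and GSK126 (120442). DMSO overlapped both of its neighbours in this order, while GSK126 plus lapatinib was above GSK126 without overlap. Lapatinib overlapped no other group.

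ERBB3, the partner of HER2 with weak kinase activity, had 9741, 9210 and 11059 normalized counts in GSK126 plus lapatinib cells and 8937, 5349 and 5715 in GSK126 cells. It had 9932, 9958 and 9958 in lapatinib cells, against 6145, 4967 and 5683 in DMSO cells. On this scale both groups that received lapatinib were above both groups that did not, with no overlap. The SD of the 3 lapatinib libraries was 15.1 normalized counts, less than the counting error of the 9356 to 10611 reads behind each value. GSK126 library 1 was far above the other two GSK126 libraries.

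EGFR, the receptor for EGF and TGFA, had 1795, 1624 and 1164 normalized counts in GSK126 plus lapatinib cells and 761, 2230 and 1332 in GSK126 cells. It had 738, 738 and 803 in lapatinib cells, against 425, 858 and 653 in DMSO cells. The combination was above both lapatinib and DMSO in every library. GSK126 library 1 lay inside the range of the DMSO and lapatinib libraries, while GSK126 library 2 was the highest of all 12.

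ERBB4, a receptor for neuregulins, was close to the limit of detection. It had 128, 84.1 and 76.1 normalized counts in GSK126 plus lapatinib cells and 23.0, 85.1 and 66.3 in GSK126 cells. It had 51.9, 36.2 and 52.6 in lapatinib cells, against 9.81, 29.6 and 19.2 in DMSO cells, where the values rest on 8, 30 and 18 reads. These DMSO reads were 3.14e-05%, 0.000112% and 6.88e-05% of all gene reads, with exact 95% intervals of 1.36e-05% to 6.2e-05%, 7.56e-05% to 0.00016% and 4.08e-05% to 0.000109%, which cover counting error only. The interval of DMSO library 1 lies below that of DMSO library 2, so these replicates differ by more than counting error. The highest ERBB4 value, 128, was in GSK126 plus lapatinib library 1, the library that detected the most genes. The part of this in that value was not tested. The order of the group means of EGFR and of ERBB4 was the same, with GSK126 plus lapatinib highest, then GSK126, lapatinib and DMSO. The GSK126 libraries overlapped both of their neighbours in this order for both genes.

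The regions before the start sites of 3 of the genes are shown because they differ in CG content and in the motif letters they hold for factors whose own genes are described further on. They are the 250 bases before the annotated start in RefSeq on GRCh38.p14, 5′ to 3′ on the strand of the gene, with CG dinucleotides in capitals. The ERBB2 window is chr17:39687844-39688093 on the plus strand, 11986 bases upstream of the start of the principal GENCODE transcript. The main EGFR window is chr7:55018767-55019016 on the plus strand, 84 bases from the principal start. The ERBB4 window is chr2:212538803-212539052 on the minus strand, 39 bases from the principal start.
ERBB2: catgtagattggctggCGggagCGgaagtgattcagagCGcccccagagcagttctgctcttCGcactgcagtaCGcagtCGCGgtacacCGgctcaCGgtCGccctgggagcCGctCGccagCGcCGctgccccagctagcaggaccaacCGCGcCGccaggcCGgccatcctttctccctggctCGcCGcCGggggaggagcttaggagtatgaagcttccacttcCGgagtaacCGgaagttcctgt
EGFR: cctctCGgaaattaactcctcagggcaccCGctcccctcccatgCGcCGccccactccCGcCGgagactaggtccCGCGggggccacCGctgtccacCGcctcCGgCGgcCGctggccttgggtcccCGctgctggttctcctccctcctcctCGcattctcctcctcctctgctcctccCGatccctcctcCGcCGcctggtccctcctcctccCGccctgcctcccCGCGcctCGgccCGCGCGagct
ERBB4: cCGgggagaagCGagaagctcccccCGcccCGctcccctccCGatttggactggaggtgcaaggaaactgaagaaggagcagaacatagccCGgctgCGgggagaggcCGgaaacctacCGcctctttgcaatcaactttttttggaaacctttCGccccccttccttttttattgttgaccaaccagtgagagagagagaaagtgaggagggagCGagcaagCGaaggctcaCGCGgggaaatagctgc
The EGFR window holds 25 CG dinucleotides, a number reached or passed by 21.6% of 35116 RefSeq windows of this length. ERBB2 holds 23, reached by 25.8%, and ERBB4 holds 14, reached by 44.8%, where the median window holds 11. A second RefSeq window of EGFR, chr7:55109589-55109838, starts 90.7 kb from the principal start, holds 1 CG dinucleotide and is not shown. The ERBB2 window holds the ETS letters CCGGAAGT on both strands, as ACTTCCGG 27 bases and as CCGGAAGT 14 bases before the start, and 3.42% of all windows hold at least 1 such match. The EGFR window holds 2 matches to the AP-2 letters GCCNNNGGC that do not overlap each other, GCCTCCGGC and GCCGCTGGC, 152 and 142 bases before the start, and 19.8% of all windows hold at least 1. The ERBB2 and ERBB4 windows hold no match to these AP-2 letters. The forkhead letters TGTTTAC, searched on both strands and present in 2.98% of windows, were not in these windows. No window of ERBB3 was available, so ERBB3 was not searched for any of these letters. A match of letters is a description of the sequence and was not tested for binding.

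Lapatinib was compared with DMSO to ask what 24 h of kinase inhibition did to the receptor transcripts. ERBB2 and ERBB3 rose, so that 2 of the 4 receptor genes passed the test, against 28% of all 14179 tested genes. ERBB2 rose 1.93-fold, by 0.95 ± 0.20 on the log2 scale (SE; limma, adjusted p = 0.00399). ERBB3 rose 1.78-fold, by 0.83 ± 0.18 (limma, adjusted p = 0.00436). In bulk RNA a change per cell cannot be told apart from a change in which cells were present. ERBB4 was higher in all 3 lapatinib libraries than in any DMSO library but did not pass (1.33 ± 0.48, limma, adjusted p = 0.0574). Without DMSO library 1 the ERBB4 difference was 0.92 (adjusted p = 0.213), and without DMSO library 2 it was 1.68 (adjusted p = 0.0346). EGFR was not separable from DMSO, with a log2 difference of 0.29 and a 95% interval of -0.44 to 1.02 (limma, adjusted p = 0.549). The groups did not overlap for 3 of the 4 genes, against 55.5% of all tested genes. The ERBB2 and ERBB3 differences ranked at the 89.4 and 86.7 percentiles of all log2 differences. When libraries were scaled to the spike-in total the ERBB2 and ERBB3 differences were 0.41 and 0.29 and no longer passed, while the median over all tested genes moved by -0.54.

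GSK126 alone was compared with DMSO to ask what 7 days of EZH2 inhibition did. EGFR was the one receptor gene of 4 that passed, against 14.6% of all tested genes, and it was 2.12-fold higher (1.08 ± 0.34 on the log2 scale, limma, adjusted p = 0.0485). The groups overlapped for all 4 genes, whereas 24% of all tested genes had groups that did not overlap. The EGFR call was lost in 10 of the 12 fits that left out 1 library, among them GSK126 library 2 (0.70, adjusted p = 0.133) and DMSO library 1 (0.81, adjusted p = 0.197). It was kept without GSK126 library 1 (1.47, adjusted p = 0.00235) and without DMSO library 2 (1.32, adjusted p = 0.0358). With only the GSK126 and DMSO libraries in the fit it was lost (limma, adjusted p = 0.177). ERBB4 had a larger difference that did not pass (1.46 ± 0.48, limma, adjusted p = 0.0631), and it was 2.01 without GSK126 library 1 (adjusted p = 0.0038). ERBB2 was not separable from DMSO (-0.39 ± 0.20, limma, adjusted p = 0.246), and the difference was -0.56 without GSK126 library 1 (adjusted p = 0.0435) and -0.18 without GSK126 library 3 (adjusted p = 0.58). ERBB3 had a difference of 0.22 ± 0.18 (limma, adjusted p = 0.491), and -0.012 without that library (adjusted p = 0.955). All 4 differences thus moved when GSK126 library 1 was left out. That library also had MALAT1, a nuclear noncoding RNA, at 4.04% of its gene reads, against 1.05% and 1.66% in the other GSK126 libraries and 1.29% to 2.09% in DMSO libraries. The part of its composition in these differences was not tested.

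GSK126 plus lapatinib was compared with lapatinib alone to ask whether the GSK126 treatment changed the receptor levels reached under lapatinib. ERBB2 fell to 0.577 times the lapatinib level (log2 change -0.79 ± 0.20, limma, adjusted p = 0.0141), and no library of one group reached the other. This was 1 of 4 receptor genes called, against 17.9% of all tested genes in either direction and 6.35% called lower. It ranked at the 5.32 percentile of all log2 differences. The call was lost without lapatinib library 1 (adjusted p = 0.0521), without lapatinib library 3 (adjusted p = 0.0549), without GSK126 plus lapatinib library 1 (-0.70, adjusted p = 0.0683) and with no filter on low values (adjusted p = 0.107). ERBB3 did not differ detectably, with a log2 difference of 0.0036 and a 95% interval of -0.38 to 0.39 (limma, adjusted p = 0.993). EGFR and ERBB4 were higher in all 3 combination libraries than in any lapatinib library and did not pass. Their log2 differences were 0.98 ± 0.34 (limma, adjusted p = 0.0629) and 1.00 ± 0.48 (limma, adjusted p = 0.196). With only the lapatinib and combination libraries in the fit, both passed (limma, adjusted p = 0.000323 and 0.00967). Groups that do not overlap, 3 of these 4 genes, made up 47.3% of all tested genes. Within the libraries of the first spike-in composition, 2 of the combination and 3 of lapatinib, ERBB2 differed by -0.70 and EGFR by 0.86. For ERBB2 these are the same libraries as in the comparison without GSK126 plus lapatinib library 1, where the call was lost.

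GSK126 plus lapatinib was compared with GSK126 alone for the effect of lapatinib on cells already under GSK126. ERBB3 was the 1 gene of 4 called, against 18.2% of all tested genes. It was higher by 0.62 ± 0.18 on the log2 scale (limma, adjusted p = 0.0307), and it was -0.42 (adjusted p = 0.44) under spike-in scaling, where the median of all genes moved by -1.04. The call was lost in 7 of the 12 fits without 1 library, with adjusted p-values up to 0.0951, and without GSK126 library 1 the difference was 0.85 (adjusted p = 0.000398). ERBB2 was higher in every combination library than in any GSK126 library and did not pass (0.54 ± 0.20, limma, adjusted p = 0.0793). Without GSK126 library 1 it passed at 0.72 (adjusted p = 0.0152). These were the 2 genes of 4 whose groups did not overlap, against 29.7% of all tested genes. ERBB4 and EGFR overlapped between the groups, with log2 differences of 0.87 ± 0.48 (limma, adjusted p = 0.232) and 0.20 ± 0.34 (limma, adjusted p = 0.718). Under spike-in scaling ERBB2, ERBB4 and EGFR had differences of -0.50, -0.17 and -0.85.

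Compared with DMSO, cells given both drugs had 3 of the 4 receptor genes higher, against 42.1% of all tested genes called and 57.1% with groups that did not overlap. ERBB4 rose 5.02-fold (log2 change 2.33 ± 0.48, limma, adjusted p = 0.00199). EGFR rose 2.42-fold (1.28 ± 0.34, limma, adjusted p = 0.00874). ERBB3 rose 1.79-fold (0.84 ± 0.18, limma, adjusted p = 0.0024), and was -0.17 (adjusted p = 0.77) under spike-in scaling, where the median moved by -1.00. These 3 calls held in all 12 fits without 1 library, with adjusted p-values up to 0.0126 for ERBB4, 0.0448 for EGFR and 0.0122 for ERBB3. ERBB2 was not separable from DMSO, at 0.16 with a 95% interval of -0.28 to 0.59 (limma, adjusted p = 0.561). Among libraries of the first spike-in composition alone ERBB4 differed by 2.10, EGFR by 1.15 and ERBB3 by 0.86. Under spike-in scaling ERBB4 differed by 1.35 (adjusted p = 0.171) and EGFR by 0.27 (adjusted p = 0.751). This comparison shares its DMSO libraries with the single-drug comparisons above. It shares its GSK126 plus lapatinib libraries with those against lapatinib and against GSK126.

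A departure from the sum of both drug effects was tested as the interaction term. None of the 4 receptor genes passed (limma), against 0.0212% or 3 of all tested genes, and none had an unadjusted p under 0.05, against 836 of all tested genes. The edgeR and DESeq2 fits called 0 of the 4 as well. The interaction of ERBB2 was -0.41 with a 95% interval of -1.02 to 0.21 (limma, adjusted p = 0.968). The values of ERBB3, ERBB4 and EGFR were -0.21 ± 0.25, -0.46 ± 0.68 and -0.097 ± 0.48 (SE). The ERBB2 difference between cells with and without lapatinib was 0.54 under GSK126 and 0.95 under DMSO, and these were not shown to differ.

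**Figure D2:**
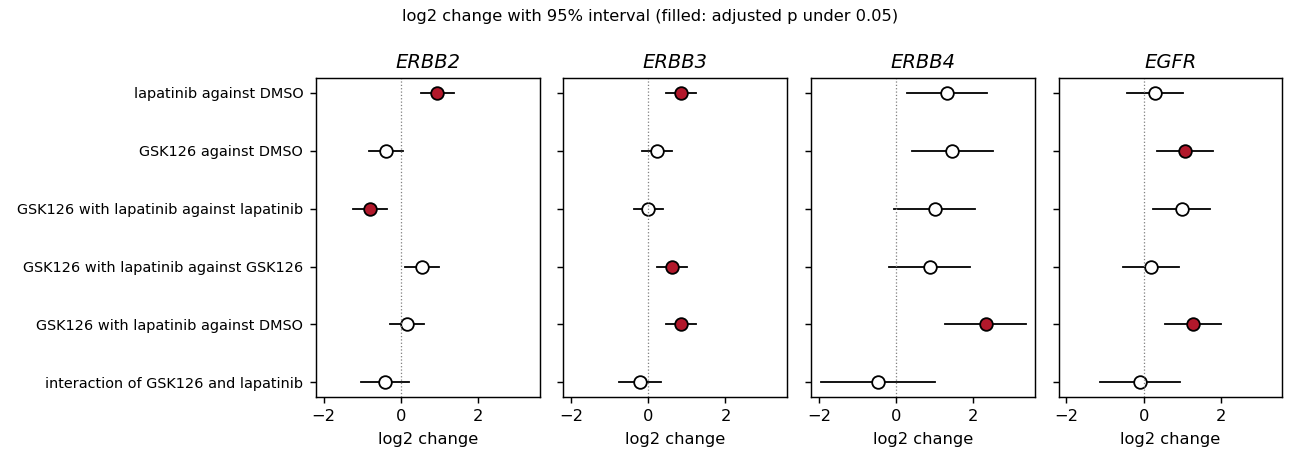
Log2 change (horizontal axes) of each receptor gene in the 5 comparisons and the interaction (rows), with 95% intervals and filled points for an adjusted p under 0.05 (limma). ERBB2 passes in lapatinib against DMSO (0.95) and in GSK126 plus lapatinib against lapatinib (-0.79). ERBB3 passes in the 3 comparisons that add lapatinib or both drugs, and the 2 that involve the combination turn to -0.42 and -0.17 under spike-in scaling.

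Ratios of reads within a library do not depend on how libraries are scaled. The ERBB2 to ERBB3 ratio was 15.5, 20.1 and 16.3 in GSK126 plus lapatinib cells and 16.7, 23.2 and 15.4 in GSK126 cells. It was 29.8, 29.2 and 30.7 in lapatinib cells, against 23.4, 33.6 and 26.8 in DMSO cells. All 6 libraries with GSK126 lay under all 6 without it. The difference between group means was -0.80 on the log2 scale for GSK126 plus lapatinib against lapatinib and -0.61 for GSK126 against DMSO. A two-sided exact permutation test gave p = 0.1 for each of these, the smallest value that 3 against 3 libraries allow, and 0.214 after adjustment over 30 ratio comparisons. Between lapatinib and DMSO the ratio differed by less than the spread between replicates, with 29.9 ± 0.77 in lapatinib cells and 27.9 ± 5.2 in DMSO cells (SD, n = 3 each, exact permutation p = 0.6).

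EGFR reads per 1000 ERBB2 reads were 11.9, 8.76 and 6.45 in GSK126 plus lapatinib cells and 5.10, 18.0 and 15.1 in GSK126 cells. They were 2.49, 2.54 and 2.63 in lapatinib cells, against 2.96, 5.14 and 4.28 in DMSO cells. The lapatinib libraries were the lowest of all, and the combination was above lapatinib and DMSO without overlap. ERBB4 reads per 1000 EGFR reads were 71.4, 51.8 and 65.4 in GSK126 plus lapatinib cells, 30.2, 38.2 and 49.8 in GSK126 cells, 70.3, 49.1 and 65.4 in lapatinib cells and 23.1, 34.6 and 29.4 in DMSO cells. Both groups with lapatinib were above DMSO without overlap in this ratio (exact permutation p = 0.1 each, the smallest possible).

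**Figure D3:**
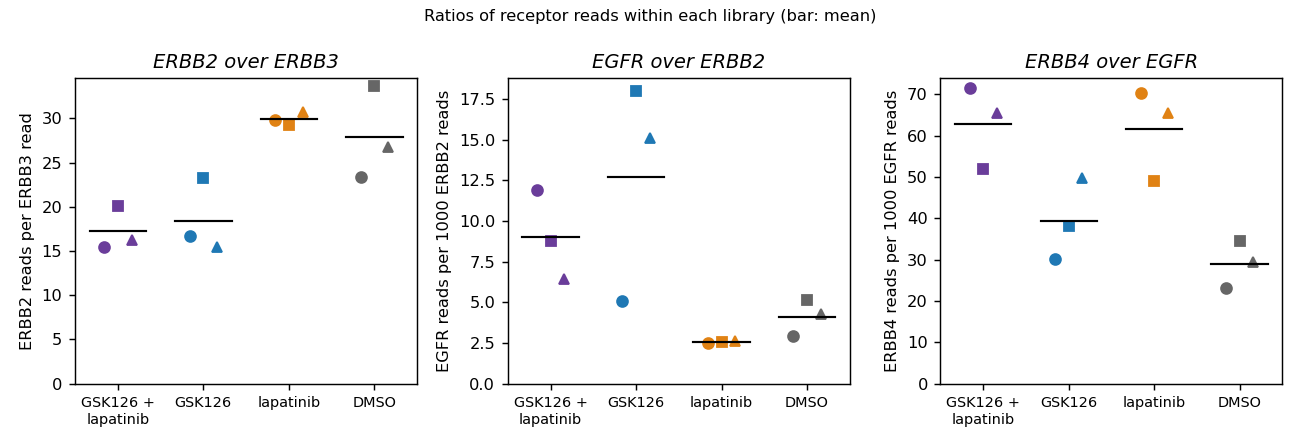
Ratios of receptor reads within each library (vertical axes, from 0) for GSK126 plus lapatinib, GSK126, lapatinib and DMSO cells (left to right), with bars at the group means. For ERBB2 over ERBB3 the 6 libraries with GSK126 lie between 15.4 and 23.2 and the 6 without it between 23.4 and 33.6.

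Replicates of a group differed in a patterned way. Within each of the 4 groups the order of the 3 libraries by ERBB4 was the same as by EGFR, and ERBB2 had that order in 2 groups. ERBB3 had the reverse order in 2 groups, GSK126 and DMSO. GSK126 library 1 deviated from its group mean by -1.11 for ERBB4, -0.79 for EGFR, 0.46 for ERBB3 and 0.34 for ERBB2 on the log2 scale, the largest deviation of any library for ERBB4, EGFR and ERBB3. For ERBB2 the largest was in GSK126 library 3, at -0.42. GSK126 library 2 deviated by 0.73 for ERBB4 and 0.76 for EGFR. The MALAT1 share of reads had the reverse order of EGFR in 3 of the 4 groups, GSK126 plus lapatinib, GSK126 and DMSO, and its part in these deviations was not tested. With 3 libraries a group, these orders are a description.

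**Figure D4:**
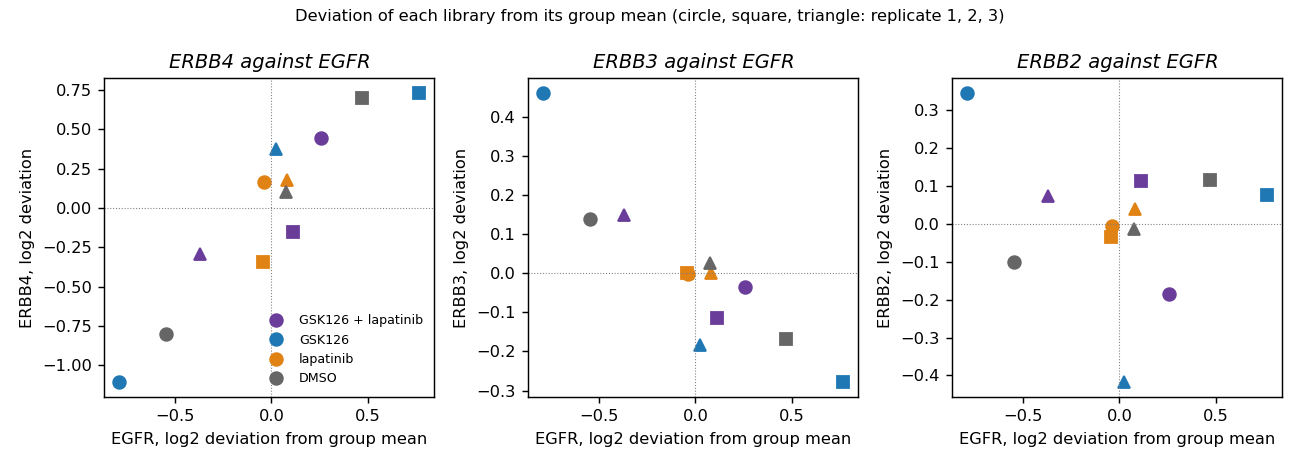
Deviation of each library from its group mean (log2) for ERBB4, ERBB3 and ERBB2 (vertical axes) against that for EGFR (horizontal axes), with colours for groups and symbols for replicates 1 to 3. GSK126 library 1 sits at -0.79 for EGFR in each panel, with ERBB4 at -1.11 and ERBB3 at 0.46.

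Genes with the profile most like each receptor over the 12 libraries were ranked by the root-mean-square difference of log2 values, each centred on its own mean. For ERBB2 these were PEX11A (0.125), PGM5 (0.147), CCDC125 (0.168), LOC100129148 (0.169) and FAM210B (0.177). For ERBB3 they were MAVS (0.116), KIAA1244 (0.120), ARID5B (0.129), LINC00476 (0.132) and KLHL22 (0.137). EGFR was most like B4GALT5 (0.175), SLAIN1 (0.184), NFE2L3 (0.194), XYLT1 (0.201) and PTPRK (0.206). ERBB4 had looser matches, C1orf106 (0.302), ALDH1A3 (0.325), GAB2 (0.334), NYNRIN (0.344) and SPATA6 (0.348). Between the receptors themselves the difference was smallest for ERBB2 and ERBB3 (0.400) and for ERBB4 and EGFR (0.501), and largest for ERBB2 and ERBB4 (1.12). Ranking by Pearson correlation instead shared only 2 of 5 genes for ERBB2, 1 for ERBB3, 1 for ERBB4 and 3 for EGFR. With a pseudocount of 5 the ERBB4 list shared 2 of 5 genes, and the other lists shared 4 or 5, so the lists depend on the measure and, for ERBB4, on the pseudocount.

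Of the 11 EGF-family ligand genes 6 had enough reads to be tested. AREG, NRG1, NRG3 and NRG4 stayed at or under 14.9 normalized counts and EREG at or under 17.4 in every library. The highest values of NRG1, NRG3, NRG4 and EREG were all in GSK126 plus lapatinib library 1. In all other libraries NRG1 was at or under 0.964 and NRG3 at or under 0.809. NRG2, a neuregulin that binds ERBB3 and ERBB4, had 508, 535 and 627 normalized counts in GSK126 plus lapatinib cells and 334, 193 and 295 in GSK126 cells. It had 146, 142 and 130 in lapatinib cells, against 108, 69.2 and 80.0 in DMSO cells. NRG2 rose in each of the 5 comparisons, most in GSK126 plus lapatinib against DMSO (2.70 ± 0.23, limma, adjusted p = 1.64e-06).

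EGF, a ligand of EGFR, had 787, 839 and 626 normalized counts in GSK126 plus lapatinib cells and 245, 488 and 274 in GSK126 cells. It had 845, 739 and 932 in lapatinib cells, against 233, 327 and 334 in DMSO cells, so both lapatinib groups were above the rest. EGF rose with lapatinib (1.502 ± 0.25, limma, adjusted p = 0.000739). TGFA, another EGFR ligand, had 32, 11 and 19 reads in GSK126 plus lapatinib libraries and 16, 22 and 23 in GSK126 libraries, against 1, 2 and 0 in lapatinib libraries and 0 in every DMSO library. TGFA reached the filter value of 10 normalized counts only in libraries with GSK126, so it entered the test through the groups where it is high, and its values are given as a description. HBEGF and EPGN, which also bind EGFR, fell with lapatinib with log2 changes of -1.31 and -1.26 (limma, adjusted p = 0.00658 and 0.0164). Both were higher in GSK126 plus lapatinib than in lapatinib cells, by 1.14 and 1.10 (limma, adjusted p = 0.0182 and 0.0419). BTC, a ligand of EGFR and ERBB4, averaged 43.1 normalized counts in GSK126 plus lapatinib cells and 8.70 in GSK126 cells, and passed in that comparison (2.34 ± 0.52, limma, adjusted p = 0.00798). In all, 2 ligand genes of 6 rose and 2 fell with lapatinib (66.7%, against 28% of all tested genes), and 2 rose with GSK126 (33.3%, against 14.6%). In GSK126 plus lapatinib cells 4 were higher than in lapatinib cells (66.7%, against 17.9%), 3 higher than in GSK126 cells (50%, against 18.2%) and 3 higher than in DMSO cells (50%, against 42.1%). TGFA is 1 of the genes counted for GSK126 and for the combination against lapatinib and DMSO. Those shares thus include a gene that entered the test through the groups where it is high.

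Of the 17 adaptor and proximal effector genes, all tested, 4 rose and 1 fell with lapatinib, or 29.4%, near the 28% of all tested genes. GRB7, an adaptor that binds HER2 and neighbours ERBB2 in the amplified region, averaged 41531 ± 2811 normalized counts in lapatinib cells and 14866 ± 1361 in DMSO cells (1.48 ± 0.16, limma, adjusted p = 3e-05). In GSK126 plus lapatinib cells it averaged 32079 ± 1730.3 and was again above DMSO (1.11 ± 0.16, limma, adjusted p = 0.00014), where ERBB2 had a difference of 0.16 ± 0.20. GAB2, a docking protein for PI3 kinase, averaged 275 ± 3.02 in GSK126 plus lapatinib cells, 127 ± 56.6 in GSK126 cells, 123 ± 5.65 in lapatinib cells and 42.0 ± 9.87 in DMSO cells, and rose in all 5 comparisons. SRC, a kinase activated by these receptors, was 1 of 2 effector genes that rose with GSK126 (0.92 ± 0.21, limma, adjusted p = 0.0114), the other being GAB2, and these made 11.8%, against 14.6% of all tested genes. In GSK126 plus lapatinib cells 8 effector genes were higher and 2 lower than in DMSO cells (58.8%, against 42.1% of all tested genes). PLCG1, a phospholipase recruited by EGFR, fell with lapatinib (-0.88 ± 0.18, limma, adjusted p = 0.00331). Of the 13 inhibitors and ubiquitin ligases of the receptors, LRIG1 was the 1 gene called with lapatinib by limma (0.81 ± 0.27, adjusted p = 0.0402), where edgeR called 0 and DESeq2 called 4. It differed by 0.59 without DMSO library 1 (adjusted p = 0.162). None passed with GSK126 (limma, with 1 at an unadjusted p under 0.05, 0 by edgeR and 1 by DESeq2). ERRFI1, a feedback inhibitor of the EGFR kinase, averaged 586 ± 173 in GSK126 plus lapatinib cells and 164 ± 26.4 in lapatinib cells (1.81 ± 0.36, limma, adjusted p = 0.0035).

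Of the 7 tested chaperone and binding partner genes, 3 fell with lapatinib (42.9%, against 28% of all tested genes). They were HSP90AA1 (-1.51 ± 0.38) and HSP90AB1 (-0.86 ± 0.22), the chaperones that hold HER2 stable, and PA2G4, which encodes an ERBB3 binding protein (-0.95 ± 0.17, limma, adjusted p = 0.0103, 0.0105 and 0.00116). MUC4, a mucin that binds HER2, averaged 14.3 ± 5.77 normalized counts in GSK126 cells and 2.11 ± 2.84 in DMSO cells. Like TGFA, it reached 10 only in libraries with GSK126, so its values are given as a description. In GSK126 plus lapatinib cells 4 of these 7 genes were lower than in DMSO cells and 2 were higher, 1 of them MUC4. The share called (85.7%, against 42.1% of all tested genes) thus includes a gene that passed the filter only through libraries with GSK126. Of 5 tested sheddase genes, which release the ligands from the cell surface, none passed for lapatinib or for GSK126 alone (limma, with 0 at an unadjusted p under 0.05 in both, 0 by edgeR in both, and 0 and 1 by DESeq2). ADAM9 (1.24 ± 0.39), ADAM10 (0.81 ± 0.23, and -0.19 under spike-in scaling) and ADAM19 (1.36 ± 0.40) were higher in GSK126 plus lapatinib than in DMSO cells (limma, adjusted p = 0.0223, 0.0125 and 0.0158). These made 60% of the tested sheddases, against 42.1% of all tested genes. ADAM15, the most abundant sheddase, went the other way without passing (-0.44 ± 0.17, limma, adjusted p = 0.0559). It was lower in GSK126 plus lapatinib than in lapatinib cells (-0.62 ± 0.17, limma, adjusted p = 0.0229).

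Transcription factor genes with a known link to the receptor genes were the last list, with 16 of 17 tested. With lapatinib 3 rose and 2 fell (31.2%, near the 28% of all tested genes), and with GSK126 3 rose and 2 fell (31.2%, against 14.6%). In GSK126 plus lapatinib cells 4 were higher and 3 lower than in lapatinib cells (43.8%, against 17.9%). TFAP2A, an AP-2 factor known to act on the ERBB2 promoter, had 1175, 1209 and 1231 normalized counts in GSK126 plus lapatinib cells and 1764, 1434 and 1518 in GSK126 cells. It had 3656, 3563 and 3446 in lapatinib cells, against 2816, 2684 and 2921 in DMSO cells. All 6 GSK126-treated libraries were under the other 6 for TFAP2A, as for the ERBB2 to ERBB3 ratio. The share of all genes with this separation was not computed, and a link to the ratio was not tested. Of the other AP-2 genes, TFAP2B also fell with GSK126 (-1.29 ± 0.33, limma, adjusted p = 0.0198). TFAP2C, more abundant than TFAP2A, did not fall with GSK126 (0.18 ± 0.12, limma, adjusted p = 0.377). In GSK126 plus lapatinib against lapatinib TFAP2C differed by 0.27 ± 0.12 (limma, adjusted p = 0.15). TFAP2A fell by 0.84 ± 0.12 with GSK126 (log2, limma, adjusted p = 0.00032) and was -1.56 ± 0.12 in GSK126 plus lapatinib against lapatinib (limma, adjusted p = 1.7e-06).

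ETV4, an ETS factor of the PEA3 group, averaged 86.5 ± 11.9 normalized counts in GSK126 plus lapatinib cells, 194 ± 42.1 in GSK126 cells, 16.7 ± 5.54 in lapatinib cells and 185 ± 25.1 in DMSO cells. It fell with lapatinib (-3.44 ± 0.28, limma, adjusted p = 2.46e-06), and was higher in the combination than in lapatinib cells (2.35 ± 0.28, limma, adjusted p = 5.57e-05). ELF3, an epithelial ETS factor, averaged 33389 ± 1423 in GSK126 plus lapatinib cells, 23895 ± 6006 in GSK126 cells, 27123 ± 1682 in lapatinib cells and 12918 ± 1095 in DMSO cells. It rose with lapatinib (1.07 ± 0.17) and with GSK126 (0.86 ± 0.17, limma, adjusted p = 0.000484 and 0.00337). FOXO3 and FOXO1, forkhead factors that AKT keeps out of the nucleus and that are known to act on ERBB3, rose with GSK126, by 1.44 ± 0.31 and 1.39 ± 0.18 (limma, adjusted p = 0.0066 and 0.000183). FOXO3 had 2134 normalized counts in GSK126 library 1, against 899 and 739 in GSK126 libraries 2 and 3. FOXO4 rose with lapatinib (1.27 ± 0.35, limma, adjusted p = 0.0178). FOXO1 and FOXO3 did not pass with lapatinib, at -0.43 ± 0.18 and 0.50 ± 0.31 (limma, adjusted p = 0.0954 and 0.25).

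**Figure D5:**
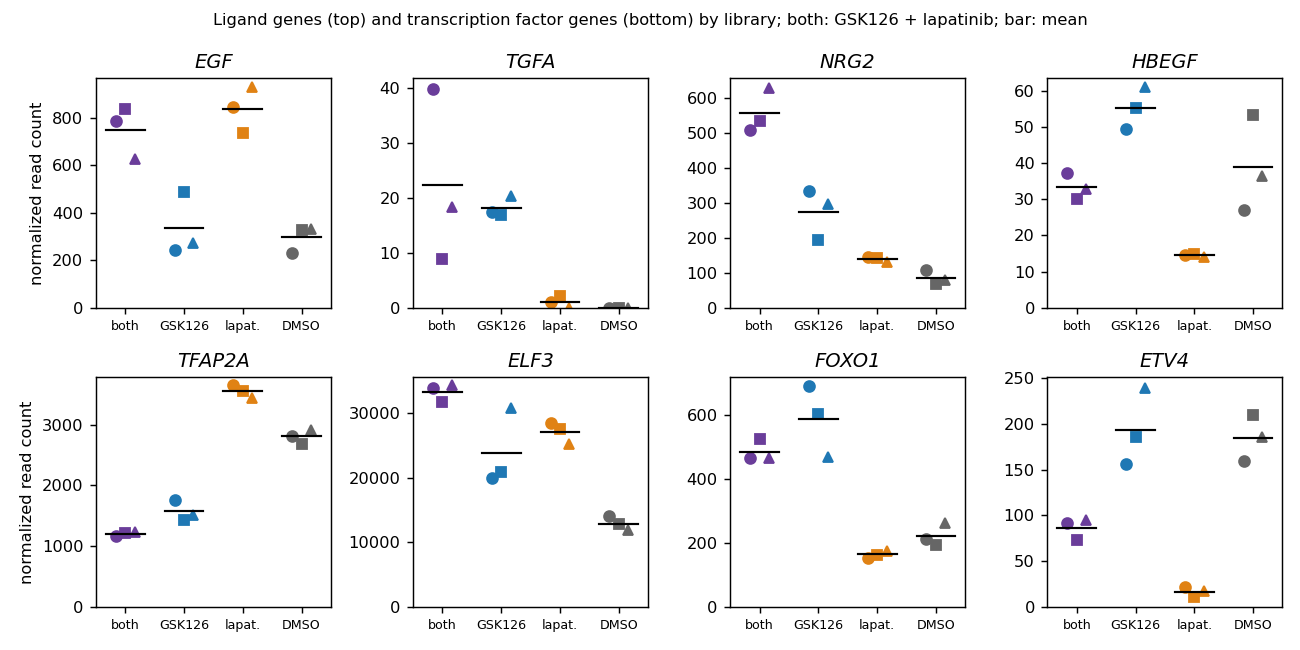
Normalized read counts (vertical axes, from 0) of 4 ligand genes (top) and 4 transcription factor genes (bottom) in each library, with bars at group means, for GSK126 plus lapatinib, GSK126, lapatinib and DMSO cells (left to right). TFAP2A lies between 1175 and 1764 in the 6 libraries with GSK126 and between 2684 and 3656 in the 6 without it, and TGFA has no reads in DMSO libraries.

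Over all 6 lists 64 of 71 genes were tested, and 10 rose and 8 fell with lapatinib, or 28.1%, close to the 28% of all tested genes. With GSK126 8 rose and 2 fell (15.6%, against 14.6%). In GSK126 plus lapatinib 12 were higher and 5 lower than in lapatinib cells (26.6%, against 17.9%), 8 higher and 5 lower than in GSK126 cells (20.3%, against 18.2%), and 23 higher and 11 lower than in DMSO cells (53.1%, against 42.1%). These totals count TGFA as higher for GSK126 and for the combination against lapatinib and DMSO. They count MUC4 as higher for GSK126 and for the combination against DMSO. Both genes passed the filter only through libraries with GSK126. The median log2 change over the listed genes was 0.24 with lapatinib and 0.075 with GSK126. Over all tested genes it was 0.038 and -0.045.

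Markers of cell types other than luminal epithelium also moved with GSK126. The summed level of 4 endothelial markers was 784 to 1093 normalized counts in GSK126 plus lapatinib cells and 934 to 1561 in GSK126 cells, against 185 to 238 in lapatinib cells and 206 to 269.7 in DMSO cells. CDH5 reached 1529 and VWF 157 in a single library, while the defining markers PECAM1 and KDR reached at most 4.98 and 22.4. The sum of 4 immune markers was 637 to 757 in GSK126 plus lapatinib cells and 281 to 445 in GSK126 cells, against 233 to 318 in lapatinib cells and 178 to 209 in DMSO cells. CD68 reached 715, and PTPRC and CD3E reached at most 19.9 and 6.22. The sum of 5 fibroblast markers was 68.4 to 169 in GSK126 plus lapatinib cells and 142 to 242 in GSK126 cells, against 201 to 243 in lapatinib cells and 248 to 392 in DMSO cells. The 4 basal markers summed to 216 to 295 in GSK126 plus lapatinib cells, 168 to 268 in GSK126 cells, 108 to 115 in lapatinib cells and 65.1 to 148 in DMSO cells. The hormone receptor genes ESR1 and PGR reached at most 32.4 and 22.4 in any library. The highest values of PECAM1, KDR, PTPRC, CD3E, ESR1 and PGR were all in GSK126 plus lapatinib library 1, which detected 21669 genes. The part of the marker genes in the receptor differences was not tested.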

How the data were processed

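Per the labels' protocols, RNA came from an RNeasy Plus Mini extraction, libraries from Kapa mRNA HyperPrep, and reads were single-end of 75 bp. The deposited signal values are counts per gene that the authors normalized with DESeq2. STAR and hg19 are named by the submitters' processing notes, while versions, the read counter, the annotation and the use of strand are not given in the sources used here, so antisense and overlapping transcripts may share reads. Each value was a whole multiple of its library's smallest value (100% of values, tolerance 0.01), which gave back the read counts.

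The main test was limma 3.58.1 with a variance trend on log2(value + 1), one fit of all 12 libraries with 4 group means (8 residual degrees of freedom), over 14179 genes that reached a value of 10 in 3 libraries or more. P-values were adjusted by Benjamini-Hochberg over these genes, and calls were made at an adjusted p under 0.05. The fit assumes that a gene has the same spread in all 4 groups. For EGFR the SD of log2 values was 0.327 in GSK126 plus lapatinib cells and 0.775 in GSK126 cells. It was 0.0706 in lapatinib cells and 0.509 in DMSO cells. Fold changes are on the log2(value + 1) scale, which understates changes of low genes such as ERBB4. Alternatives were edgeR 4.0.16 and DESeq2 1.42.0 on the recovered counts, other scalings, filters and pseudocounts, a replicate block, and fits without single libraries. The limma fit was checked on simulated counts in which each gene had a single dispersion for all groups. This check does not cover groups of unequal spread. Ratios within libraries were compared with exact permutation tests. The 86 spike-in features, which the labels do not describe, were kept out of the tests. The members and gene lists (ligands, sheddases, effectors, inhibitors, chaperones, transcription factors, and cell type markers) were chosen with earlier results of these data known. Named list genes are members, up to 4 called genes of each list and comparison with the smallest adjusted p, and the 5 genes most like each member. ERBIN was matched by its older symbol ERBB2IP. Promoter sequences are from RefSeq (GRCh38.p14) and lengths from GENCODE 29, a different build from the hg19 of the counts, matched by symbol, so no gene coordinates on hg19 are given.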

Additional observations from a re-analysis of the deposited data

How the results depend on the processing

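The ERBB3 rise with lapatinib and the ERBB3, ERBB4 and EGFR rises with both drugs kept their direction and call in every alternative except spike-in scaling, as did ERBB2 with lapatinib. Scaling to the spike-in total moved the median log2 change of all genes by -0.54 for lapatinib against DMSO, -0.46 for GSK126 plus lapatinib against lapatinib, -1.04 against GSK126 and -1.00 against DMSO, and that of the interaction by -0.50. It gave ERBB2 0.41 and ERBB3 0.29 for lapatinib, EGFR 1.12 (adjusted p = 0.76) for GSK126, ERBB2 -1.26 for GSK126 plus lapatinib against lapatinib, and ERBB4 1.35 and EGFR 0.27 for both drugs against DMSO, none of them called. It turned ERBB3 to -0.42 against GSK126 and to -0.17 against DMSO, GRB7 to -0.034 and SOS2 to -0.013 against GSK126, and ADAM10 to -0.19 and PTPN12 to -0.31 against DMSO. Its calls for lapatinib were 42 higher and 743 lower, against 1949 and 2024. For both drugs against DMSO they were 599 and 4111, against 3114 and 2856, and against GSK126 13 and 3044, against 1202 and 1377. Total-count scaling moved the median by up to 0.25 and upper-quartile scaling by up to 0.14. The spike-in share of reads differed among replicates of a group, most in GSK126 cells, which can widen the spread under spike-in scaling.

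The EGFR call for GSK126 was lost with no filter (1.08, adjusted p = 0.0557), a filter of 50 (0.0524), TMM scaling (1.07), total-count scaling (1.19), a constant prior variance (0.084), the compared groups alone (0.177) and a spike-in composition term (1.09). ERBB2 in GSK126 plus lapatinib against lapatinib was not called with no filter (-0.79). ERBB3 against GSK126 was not called with a constant prior variance (0.62, adjusted p = 0.0516) or the compared groups alone (0.157). Leaving out the 3 libraries of the second spike-in composition left GSK126 with library 1 alone, which is then assumed to vary like the other groups. The spread among GSK126 libraries thus no longer enters that fit, which affects its calls in every comparison. In that fit EGFR (0.30) and ERBB3 (0.68) against DMSO, and ERBB3 (0.18) and ERBB4 (1.76) in the combination against GSK126, changed sides of the threshold, and these values set a single GSK126 library against the other group.

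Calls were gained for ERBB4 with lapatinib under the compared groups alone (1.33, adjusted p = 0.0311), DESeq2 (1.25), array weights (1.196), the composition term and without those 3 libraries (1.33 each). With GSK126 they were gained for ERBB2 (-0.73) and ERBB4 (1.69) by array weights, and ERBB4 by DESeq2 (1.57). Against lapatinib they were gained for ERBB4 with the compared groups alone (1.00, adjusted p = 0.00967) and array weights (0.91). For EGFR they were gained with the compared groups alone (0.98, adjusted p = 0.000323), DESeq2 (1.01), array weights (1.10) and without those 3 libraries (0.86). Against GSK126 they were gained for ERBB2 with upper-quartile scaling (0.62), total-count scaling (0.69), edgeR (0.56), DESeq2 (0.52) and array weights (0.97). The cause was not tested. Of the list genes named as called, 4 of 16 for lapatinib, 0 of 9 for GSK126, and for GSK126 plus lapatinib 1 of 14 against lapatinib, 0 of 12 against GSK126 and 8 of 21 against DMSO kept their call in every alternative, fits without 1 library included.

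Without 1 library at a time, ERBB2 ranged from 0.90 to 1.01, ERBB3 from 0.75 to 0.90, ERBB4 from 0.92 to 1.68 and EGFR from 0.020 to 0.53 for lapatinib. For GSK126 the ranges were -0.56 to -0.18, -0.012 to 0.36, 1.06 to 2.01 and 0.70 to 1.47 in the same order of genes. For GSK126 plus lapatinib they were -0.85 to -0.70, -0.071 to 0.061, 0.78 to 1.15 and 0.86 to 1.17 against lapatinib, 0.34 to 0.72, 0.48 to 0.85, 0.31 to 1.24 and -0.20 to 0.58 against GSK126, and 0.10 to 0.25, 0.76 to 0.91, 1.93 to 2.68 and 1.00 to 1.51 against DMSO. The interaction ranged from -0.61 to -0.23, -0.35 to 0.016, -1.01 to -0.055 and -0.49 to 0.29.

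Replicate numbers were not taken to pair the samples, since libraries of the same number had correlations of -0.334 to 0.352 between their deviations and 4 of 12 matched their own number best. With the replicate block the EGFR difference of GSK126 plus lapatinib against lapatinib was called (0.98, adjusted p = 0.0417), and no other receptor call changed. DMSO values of ERBB4 rest on 8 to 30 reads, which limits its precision.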
